A study of Homo sapiens with 12 samples.

Results

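The ubiquitin-specific proteases (USPs) are the largest family of human deubiquitinases, and their transcripts were followed here across 4 groups of LM2 cells. Members were all symbols of the deposited table made of USP and a number, with or without a final X or L, except USP18. The rule found 49 members among 24556 symbols, each on a single row. Averaged over the 12 values, 43 of them reached 1 FPKM, and these entered the tests. The other 6 were USP50, USP2, USP51, USP6, USP26 and USP29.

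LM2 is a breast cancer cell line derived from MDA-MB-231 cells that forms lung metastases. RNA was sequenced from 4 groups of 3 libraries. They were cells transduced with EZH2 shRNA, cells in libraries labelled ZRANB1 siRNA, cells with scramble siRNA and cells transduced with scramble shRNA. EZH2 is the histone H3 methyltransferase of Polycomb repressive complex 2, and ZRANB1, also called TRABID, is a deubiquitinase of the OTU family. All cells carried either an shRNA or an siRNA, so there was no untreated group. EZH2 shRNA was set against scramble shRNA and ZRANB1 siRNA against scramble siRNA, and scramble siRNA was also set against scramble shRNA. The labels do not say whether replicates were separate cultures, so p-values measure only the spread between these libraries, which may be technical.

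USP enzymes are cysteine proteases that cut ubiquitin from proteins. Removal of a degradation signal can stabilise a protein, and removal of a single ubiquitin from histones or repair proteins switches off a signal. Several USPs act only when bound to partner proteins, and some members lack catalytic activity. USP1, USP7, USP21, USP36 and USP44 have each been reported to remove ubiquitin from the EZH2 protein.

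Levels are FPKM, fragment numbers scaled by transcript length and library size. Tests were made with limma on log2(FPKM + 1), with p-values adjusted over the 11929 genes tested, and genes with an adjusted p below 0.05 were called. Fold changes on this scale understate the change of genes at low levels. Within each group the 3 values of a gene stood in ascending digit order in all rows with 3 different values, so a column did not follow a single library. Values are therefore given from low to high, and depth per library is unknown. The 6 genes of a mesenchymal triple-negative marker list were at 1 FPKM or more in every group. Of a luminal list of 6 genes, 2 reached 1 FPKM or more in each group, while PGR, the progesterone receptor, was listed at 0 throughout.

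EZH2 was lower with EZH2 shRNA and in the libraries labelled ZRANB1 siRNA, each against its own control, while ZRANB1 was not called lower in the libraries named for it. EZH2 read 16.1, 16.1 and 17.3 FPKM with EZH2 shRNA, against 34.2, 35.6 and 36.3 FPKM with scramble shRNA, a log2 fold change of -1.06 (limma, adjusted p = 1.34e-05). It read 28.3, 30.4 and 32.4 FPKM in the libraries labelled ZRANB1 siRNA, against 46.5, 48.7 and 50.6 FPKM with scramble siRNA (-0.66, adjusted p = 5.43e-05). The EZH2 values did not overlap in either comparison. ZRANB1 itself read 9.05, 9.49 and 11.5 FPKM in the libraries labelled ZRANB1 siRNA, against 10.5, 11.5 and 12.1 FPKM with scramble siRNA. These ranges overlapped, and the log2 difference was -0.17 (95% interval -0.42 to 0.076, adjusted p = 0.349). The label of the ZRANB1 siRNA group was therefore not borne out by the level of its target, and every direction below for that group is that of the libraries so labelled.

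USP22, USP1, USP5, USP39 and USP10 had the highest means over the 12 values, led by USP22 at 87.4 FPKM. USP22 is the deubiquitinase of the SAGA coactivator complex, USP5 takes apart unanchored ubiquitin chains and USP10 is a cytoplasmic enzyme that acts on p53. USP39 has a USP fold without catalytic activity and works in pre-mRNA splicing. Group means summed over the 49 members were 714 FPKM with EZH2 shRNA, 698 FPKM in the libraries labelled ZRANB1 siRNA, 723 FPKM with scramble siRNA and 705 FPKM with scramble shRNA. The 5 highest members of each group held 38.1% of that sum with EZH2 shRNA, 41.3% in libraries labelled ZRANB1 siRNA, 43.1% with scramble siRNA and 38.7% with scramble shRNA. The share of the top members was thus larger in both siRNA groups than in both shRNA groups, a difference that was not tested. In bulk RNA, a lower level in all cells and a lower share of expressing cells cannot be told apart.

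USP22, USP5 and USP10 are given here value by value, as members of the top 5, and USP1 and USP39 with the comparisons. USP22 read 81.9, 83.5 and 86.3 FPKM with EZH2 shRNA, against 74.9, 77.5 and 77.7 FPKM with scramble shRNA. It read 86.0, 90.4 and 93.0 FPKM in libraries labelled ZRANB1 siRNA, against 96.0, 99.9 and 101 FPKM with scramble siRNA. USP22 was the highest member in every group, and its values did not overlap in either comparison. USP5 read 43.4, 48.4 and 50.8 FPKM with EZH2 shRNA, against 43.3, 52.5 and 52.5 FPKM with scramble shRNA. It read 47.1, 54.2 and 58.0 FPKM in libraries labelled ZRANB1 siRNA, against 52.7, 58.6 and 63.6 FPKM with scramble siRNA. The USP5 ranges overlapped in both comparisons, and USP5 was called in no comparison. USP10 read 35.4, 36.9 and 38.4 FPKM with EZH2 shRNA, against 36.0, 43.3 and 43.4 FPKM with scramble shRNA. It read 42.4, 48.6 and 49.8 FPKM in libraries labelled ZRANB1 siRNA, against 50.6, 52.3 and 55.9 FPKM with scramble siRNA. USP10 was outside the range of its control in the libraries labelled ZRANB1 siRNA (adjusted p = 0.231) and was not called there or with EZH2 shRNA.

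Between 23 and 24 members averaged 10 FPKM or more in each group. Below the filter, USP50 averaged 0.279 FPKM over the 12 values, USP2 0.116 FPKM, USP51 0.113 FPKM and USP6 0.108 FPKM. USP26 averaged 0.0019 FPKM, and USP29 was listed at 0 in all values. The lowest tested members were USP27X, at 1.11 FPKM, and USP44, at 1.21 FPKM, both with group means on either side of the filter. USP27X passed through the groups without siRNA and USP44 through the siRNA groups, so the choice of tested genes was not free of their differences. Among the 43 tested members the largest group mean was a median of 1.33 times the smallest. It was under 1.5 times in 31 members, between 1.5 and 2 times in 9, and over 2 times in USP30 (2.29 times), USP27X (2.92 times) and USP44 (8.66 times).

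**Figure D1:**
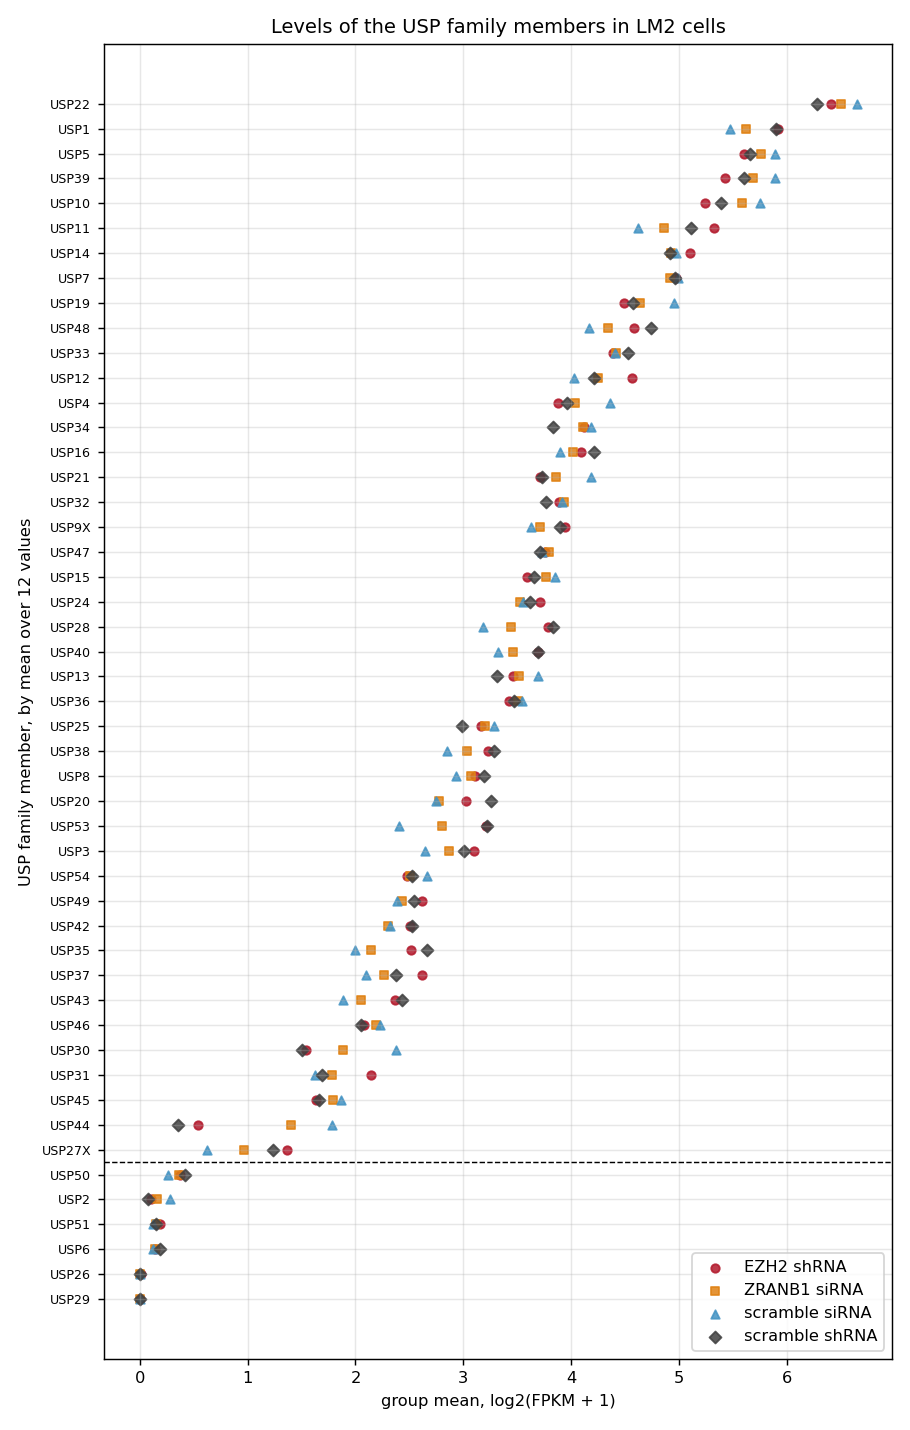
Mean level of each of the 49 USP family members in the 4 groups, as log2(FPKM + 1) on the horizontal axis; genes run down the page by their mean over 12 values, and the dashed line divides the 43 tested members from the 6 below the filter. Most members keep similar levels in the 4 groups, while USP44 and USP27X spread widely near the bottom of the tested genes.

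With EZH2 shRNA, 1 of 43 tested members changed, and it was USP31, which was higher than with scramble shRNA. That is 2.33% of the members tested, where 6.41% of all tested genes were called in either direction and 3.39% were called higher. No member was called lower by limma, and at an unadjusted p under 0.05 there were 5 higher and 1 lower. Of all 11929 tested genes, 1207 were higher and 1351 lower at that unadjusted threshold. The median log2 fold change was -0.0058 over the members and -0.014 over all tested genes, and the members ranged from -0.24 to 0.45. The other 42 members did not pass the test.

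USP31, a signalling-linked member reported to restrain NF-kB activation, read 2.86, 3.36 and 4.02 FPKM with EZH2 shRNA, against 2.09, 2.26 and 2.31 FPKM with scramble shRNA. All 3 EZH2 shRNA values were above all control values, and the means were 3.42 ± 0.58 FPKM with EZH2 shRNA and 2.22 ± 0.12 FPKM with scramble shRNA (SD, n = 3 each), a ratio of 1.54. The log2 fold change was 0.45 (SE 0.11, adjusted p = 0.037, limma). An exact two-sided permutation test gave p = 0.1, the smallest that 3 values against 3 allow. The call was lost in 7 of the 13 other settings in which it could be tested, with adjusted p between 0.0237 and 0.126. In the libraries labelled ZRANB1 siRNA, USP31 averaged 2.43 ± 0.23 FPKM, against 2.08 ± 0.27 FPKM with scramble siRNA (SD, n = 3 each), with overlapping values and no call (adjusted p = 0.392). The ZRANB1 siRNA effect minus the EZH2 shRNA effect on USP31 was not called either (adjusted p = 0.299).

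USP12, USP34, USP37, USP22 and USP39 also had an unadjusted p under 0.05 with EZH2 shRNA, and none passed the adjustment. USP12, which is activated by WDR48 and WDR20, averaged 22.6 FPKM with EZH2 shRNA and 17.5 FPKM with scramble shRNA, with overlapping values (adjusted p = 0.198). USP34, which acts on axin in Wnt signalling, read 14.9, 16.4 and 17.7 FPKM with EZH2 shRNA, against 11.8, 13.2 and 14.8 FPKM with scramble shRNA (adjusted p = 0.162). These USP34 ranges did not overlap. USP39 was the sole lower member of these, at 42.0 ± 1.6 FPKM with EZH2 shRNA and 47.5 ± 1.3 FPKM with scramble shRNA (SD, n = 3 each; adjusted p = 0.124).

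**Figure D2:**
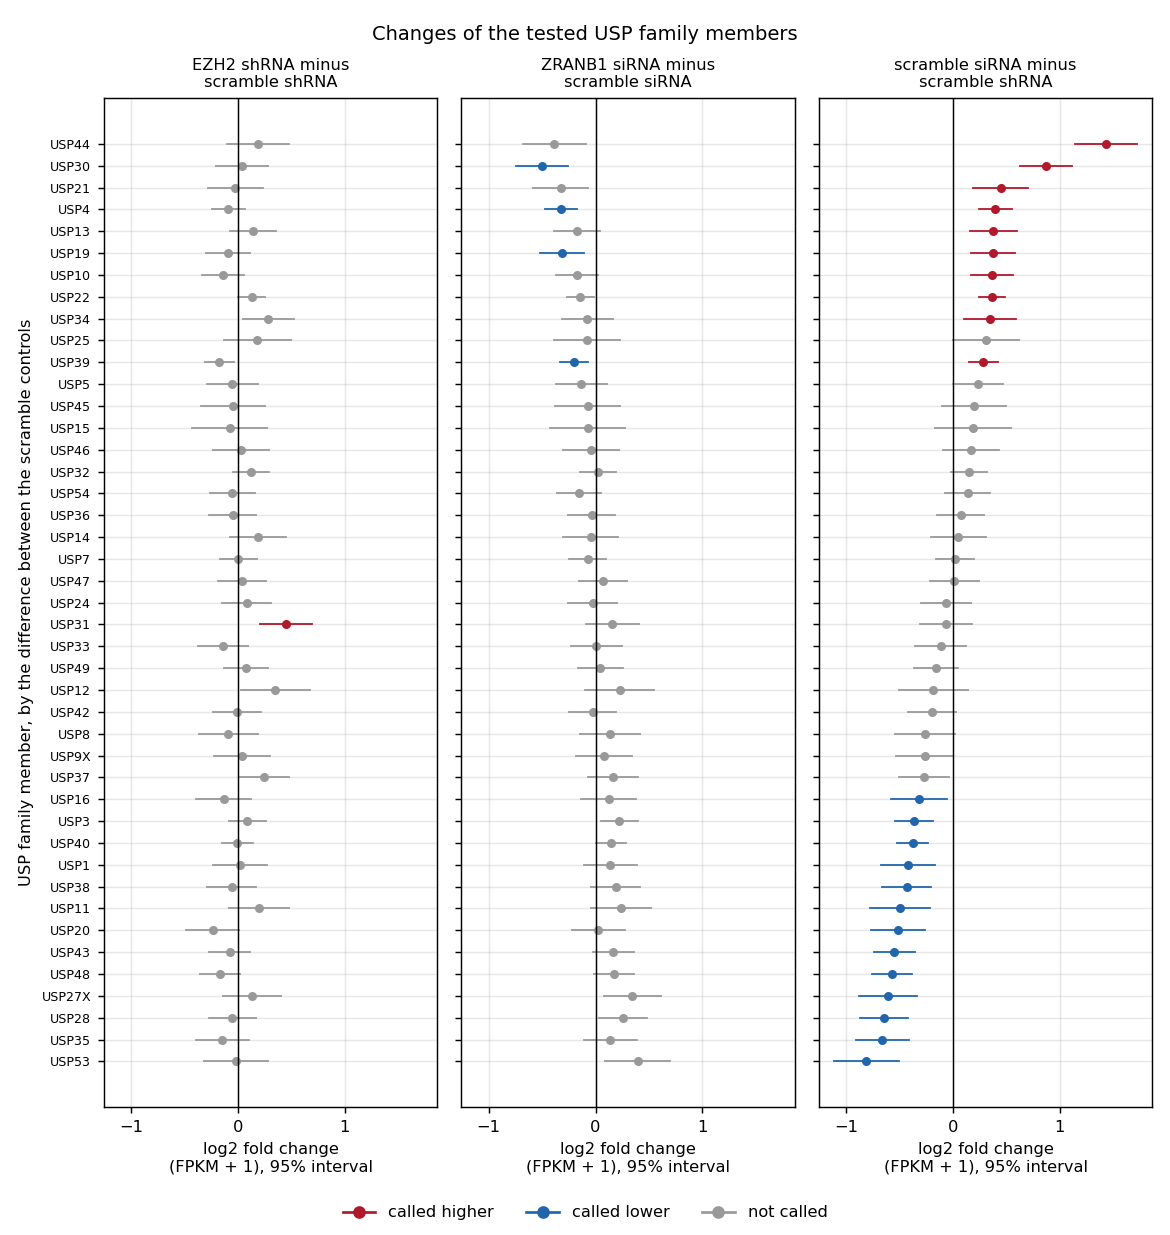
Log2 fold change of FPKM + 1 with its 95% interval for each of the 43 tested members in 3 comparisons, the first group of each title minus the second; genes are ordered by the difference between the scramble controls, and colour marks genes called higher or lower. A single member (USP31) is called with EZH2 shRNA and 4 (USP4, USP30, USP19 and USP39) in the libraries labelled ZRANB1 siRNA, against 23 between the controls.

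The members with a reported link to EZH2 had no call with EZH2 shRNA or in libraries labelled ZRANB1 siRNA, where 6.41% and 16.6% of all tested genes were called, so 0 of 6 says little about the list. This list held 6 genes, the 5 named above together with USP22, and its medians were 0.010 with EZH2 shRNA and -0.11 in the libraries labelled ZRANB1 siRNA (limma, 0 called in each; unadjusted p under 0.05 in 1 higher with EZH2 shRNA and 3 lower in libraries labelled ZRANB1 siRNA). USP7, best known for its action on MDM2 and p53, read 28.6, 30.0 and 32.3 FPKM with EZH2 shRNA, against 28.3, 29.9 and 32.6 FPKM with scramble shRNA. It read 26.9, 30.0 and 30.5 FPKM in libraries labelled ZRANB1 siRNA, against 29.5, 29.8 and 32.8 FPKM with scramble siRNA. Its log2 change with EZH2 shRNA was 0.0043, with a 95% interval from -0.17 to 0.18, and in libraries labelled ZRANB1 siRNA it was -0.074, with a 95% interval from -0.25 to 0.10. USP36, a nucleolar enzyme, read 8.21, 10.0 and 10.98 FPKM with EZH2 shRNA, against 9.77, 9.93 and 10.5 FPKM with scramble shRNA. It read 9.99, 10.3 and 10.8 FPKM in libraries labelled ZRANB1 siRNA, against 9.48, 10.97 and 11.6 FPKM with scramble siRNA. Both genes overlapped between groups in each comparison.

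USP1, which acts with WDR48 on FANCD2 and PCNA in DNA repair, read 53.1, 56.7 and 68.0 FPKM with EZH2 shRNA, against 52.9, 57.0 and 65.5 FPKM with scramble shRNA. Its values in the libraries labelled ZRANB1 siRNA were 43.1, 47.0 and 54.1 FPKM, against 41.5, 42.3 and 46.4 FPKM with scramble siRNA. USP1 thus overlapped with its control in both comparisons. USP21, an enzyme of histone H2A and of signalling proteins, read 10.9, 11.6 and 13.8 FPKM with EZH2 shRNA, against 11.9, 12.1 and 12.9 FPKM with scramble shRNA. It read 11.8, 13.6 and 15.1 FPKM in libraries labelled ZRANB1 siRNA, against 15.0, 16.8 and 19.8 FPKM with scramble siRNA (log2 -0.33, adjusted p = 0.0829). The USP21 ranges overlapped in both comparisons. USP22 averaged 89.8 ± 3.6 FPKM in libraries labelled ZRANB1 siRNA and 99.1 ± 2.7 FPKM with scramble siRNA (adjusted p = 0.123), and 83.9 ± 2.2 FPKM with EZH2 shRNA against 76.7 ± 1.6 FPKM with scramble shRNA (adjusted p = 0.222). Its values did not overlap in either comparison, and the ZRANB1 siRNA effect minus the EZH2 shRNA effect was -0.27 on the log2 scale (95% interval -0.45 to -0.092, adjusted p = 0.0578).

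USP44, an enzyme of the mitotic checkpoint and of histone H2B, was the member with the widest spread between groups. It read 0.361, 0.369 and 0.636 FPKM with EZH2 shRNA, against 0.107, 0.333 and 0.408 FPKM with scramble shRNA. It read 1.47, 1.49 and 1.99 FPKM in libraries labelled ZRANB1 siRNA, against 2.27, 2.46 and 2.62 FPKM with scramble siRNA. All 6 siRNA values were above all 6 shRNA values. Neither group was called against its own control (log2 0.18 with EZH2 shRNA and -0.38 in libraries labelled ZRANB1 siRNA). The ZRANB1 siRNA difference was called in 4 of the other settings. USP44 averaged below 1 FPKM in both shRNA groups and passed the filter only through the siRNA groups, so these adjusted p-values are left out.

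**Figure D3:**
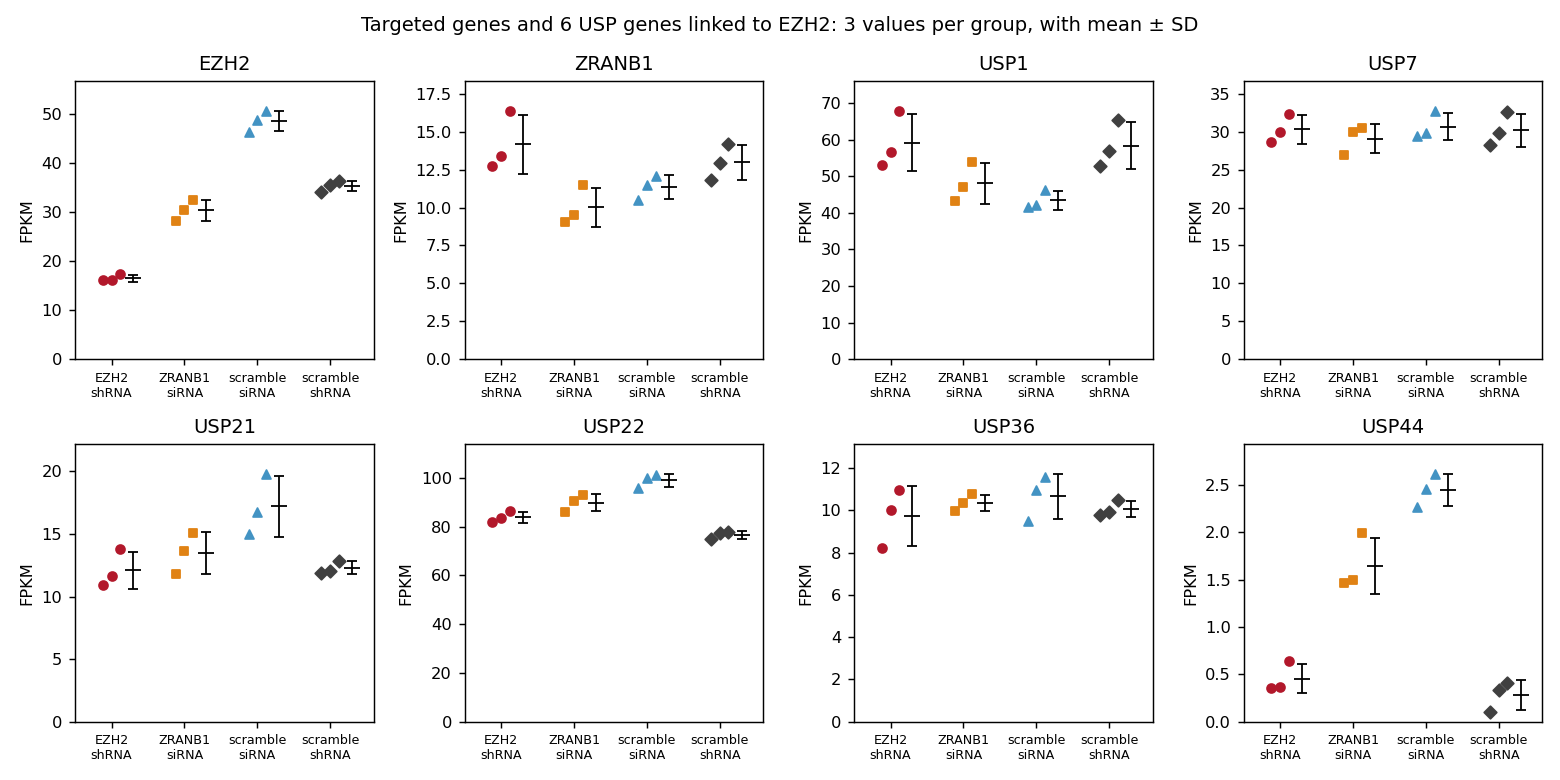
FPKM of EZH2, ZRANB1 and 6 USP genes linked to EZH2 in the 4 groups; points are the 3 values of a group drawn from low to high, and bars are the mean ± SD. EZH2 is lowest with EZH2 shRNA, ZRANB1 overlaps between the siRNA groups, USP7 and USP36 overlap between groups, and USP44 is above 1 FPKM in the siRNA groups alone.

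In the libraries labelled ZRANB1 siRNA, USP4, USP30, USP19 and USP39 were lower than with scramble siRNA, and no member was called higher, though 1 was in each of 2 other settings. These are 9.3% of the 43 tested members, where 16.6% of all tested genes were called in either direction and 6.5% were called lower. At an unadjusted p under 0.05 there were 5 members higher and 7 lower (limma). Of all 11929 tested genes, 1867 were higher and 1649 lower at that unadjusted threshold. The median log2 fold change was 0.0091 over the members and -0.017 over all tested genes, and the members ranged from -0.50 to 0.39. The called members differ in role and place in the cell. All 4 were also called higher with scramble siRNA than with scramble shRNA, and the same scramble siRNA libraries serve in both comparisons. Whether the libraries labelled ZRANB1 siRNA or those with scramble siRNA stand apart was not tested. The share of all tested genes with both calls was not counted.

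USP4, which deubiquitinates the TGF-beta type I receptor, read 14.4, 15.3 and 16.6 FPKM in libraries labelled ZRANB1 siRNA, against 19.0, 19.6 and 19.9 FPKM with scramble siRNA. The ranges did not overlap, and the mean in libraries labelled ZRANB1 siRNA was 79.0% of that with scramble siRNA. USP4 fell by 0.32 on the log2 scale (SE 0.069, adjusted p = 0.00794, limma), and the call held in all 14 other settings. USP30, an enzyme of the outer mitochondrial membrane that opposes mitophagy, read 2.15, 2.84 and 3.07 FPKM in libraries labelled ZRANB1 siRNA, against 3.87, 3.97 and 4.75 FPKM with scramble siRNA. Its highest ZRANB1 siRNA value was below the lowest control value, and it fell by 0.50 on the log2 scale (SE 0.11, adjusted p = 0.00979), a call that held in the 13 other settings that tested it. USP30-AS1, which is read from the other strand, averaged 0.143 FPKM in libraries labelled ZRANB1 siRNA and 0.209 FPKM with scramble siRNA. The sources used here do not give the strand setting of the counting, so reads of the pair cannot be told apart.

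USP19, an enzyme with a form anchored in the endoplasmic reticulum, read 21.9, 24.7 and 24.9 FPKM in libraries labelled ZRANB1 siRNA, against 26.9, 31.3 and 31.4 FPKM with scramble siRNA. It fell by 0.31 on the log2 scale (SE 0.094, adjusted p = 0.0423). USP39 read 47.9, 51.1 and 52.0 FPKM in libraries labelled ZRANB1 siRNA, against 56.3, 57.4 and 60.5 FPKM with scramble siRNA, and fell by 0.20 (SE 0.061, adjusted p = 0.0444). Neither gene overlapped between the groups, and both calls sat close to the threshold. The USP19 call held in 6 of the 14 other settings and the USP39 call in 2, and both were lost with 1 scaling factor per group. Without 1 replicate, the adjusted p lay between 0.0316 and 0.148 for USP19 and between 0.0604 and 0.146 for USP39. In each of the 4 genes the exact two-sided permutation p was 0.1, the smallest possible here.

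The same 4 genes were not called with EZH2 shRNA. USP4 read 12.9, 13.5 and 14.6 FPKM with EZH2 shRNA, against 14.3, 14.7 and 14.8 FPKM with scramble shRNA. USP30 read 1.73, 1.98 and 2.004 FPKM with EZH2 shRNA, against 1.73, 1.83 and 1.93 FPKM with scramble shRNA. Both overlapped with their controls (adjusted p = 0.501 for USP4 and 0.903 for USP30). USP19 read 19.1, 22.2 and 22.9 FPKM with EZH2 shRNA, against 21.1, 23.0 and 24.3 FPKM with scramble shRNA. USP39 read 40.4, 42.0 and 43.5 FPKM with EZH2 shRNA, against 46.3, 47.4 and 48.8 FPKM with scramble shRNA. USP19 overlapped (adjusted p = 0.631), and USP39 was outside the range of its control without passing the threshold.

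USP53, USP44 and USP27X were not called, though each was called in at least 1 other setting. Each was outside the range of its control, as were other members not called, such as USP3 (log2 0.22, limma, adjusted p = 0.0815), USP10 and USP22. The share of all tested genes outside the range of their control was not counted. USP53, a protein found at tight junctions, read 5.37, 5.76 and 6.81 FPKM in libraries labelled ZRANB1 siRNA, against 4.14, 4.28 and 4.47 FPKM with scramble siRNA (log2 0.39, adjusted p = 0.077). USP27X, a relative of USP22, read 0.905, 0.949 and 1.00 FPKM in libraries labelled ZRANB1 siRNA, against 0.376, 0.575 and 0.678 FPKM with scramble siRNA (log2 0.34). It averaged below 1 FPKM in both siRNA groups and passed the filter only through the shRNA groups, so its adjusted p is left out. A test of the ZRANB1 siRNA effect minus the EZH2 shRNA effect called 10.5% of all tested genes and 0 of the 43 members (limma, unadjusted p under 0.05 in 1 higher and 6 lower). For this difference, 1605 of all 11929 tested genes were higher and 1245 lower at that unadjusted threshold. Among the called members, this difference was -0.54 for USP30 (adjusted p = 0.0521) and -0.23 for USP4 (adjusted p = 0.172). Calls in 1 of these comparisons and not the other are therefore not shown to differ between them.

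The promoters printed here are those of the 4 members called lower in the libraries labelled ZRANB1 siRNA, so their shared direction comes from that choice. They were taken from RefSeq on build GRCh38.p14, which is not the hg19 build of the files, and each is cut to the bases upstream of every annotated start. They are given 5′ to 3′ on the gene's strand, USP4 at chr3:49340072-49340303 (minus), USP30 at chr12:109052326-109052575 (plus), USP19 at chr3:49120939-49121073 (minus) and USP39 at chr2:85615936-85616142 (plus). Capitals mark the motif matches on either strand, which were GC boxes in USP4, USP19 and USP39, an ETS site in USP19 and USP30, and a CCAAT box in USP39.
USP4: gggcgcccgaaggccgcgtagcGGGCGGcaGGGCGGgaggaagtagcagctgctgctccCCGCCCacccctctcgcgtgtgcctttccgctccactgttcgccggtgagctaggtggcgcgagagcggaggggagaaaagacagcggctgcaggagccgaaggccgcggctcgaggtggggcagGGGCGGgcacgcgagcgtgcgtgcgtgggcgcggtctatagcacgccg
USP30: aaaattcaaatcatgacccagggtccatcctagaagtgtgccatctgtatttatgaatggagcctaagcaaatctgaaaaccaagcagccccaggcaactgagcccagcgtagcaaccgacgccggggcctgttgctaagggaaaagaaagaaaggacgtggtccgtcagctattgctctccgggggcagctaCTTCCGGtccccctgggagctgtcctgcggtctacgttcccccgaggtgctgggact
USP19: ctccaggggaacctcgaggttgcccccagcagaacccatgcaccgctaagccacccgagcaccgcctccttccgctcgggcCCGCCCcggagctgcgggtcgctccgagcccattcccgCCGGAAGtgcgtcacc
USP39: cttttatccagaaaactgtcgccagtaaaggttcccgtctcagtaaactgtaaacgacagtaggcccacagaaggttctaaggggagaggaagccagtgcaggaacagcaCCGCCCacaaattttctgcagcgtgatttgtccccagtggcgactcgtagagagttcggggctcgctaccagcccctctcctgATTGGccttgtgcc

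Shares and matches below are over the full 250 bases before the start used for each gene. In USP4, USP19 and USP39 these run past another annotated start, where the printed part ends. G and C made up 74% in USP4, 70.8% in USP19, 58% in USP39 and 55.6% in USP30, with a median of 58% over all windows. USP4 had 5 matches of the GC box GGGCGG, 4 of them in the printed part, while USP19 and USP39 had 1 each and USP30 had none. The GC box was present in 42.6% of 35116 windows of that length, searched on both strands. The ETS site CCGGAAG was in USP19 and USP30 and in 8.52% of all windows, and CCAAT was in USP39 and in 32% of all windows. The E-box CACGTG (6.34% of windows), the CRE TGACGTCA (1.65%) and the TATA box TATAAA (10.7%) were in none of the 4. No single motif of this set was in all 4 promoters, and a match is only a run of letters. USP19 and USP4 are both on chromosome 3, with 6 protein-coding genes between them. Of the 49 members, 39 matched an entry of the promoter table.

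**Figure D4:**
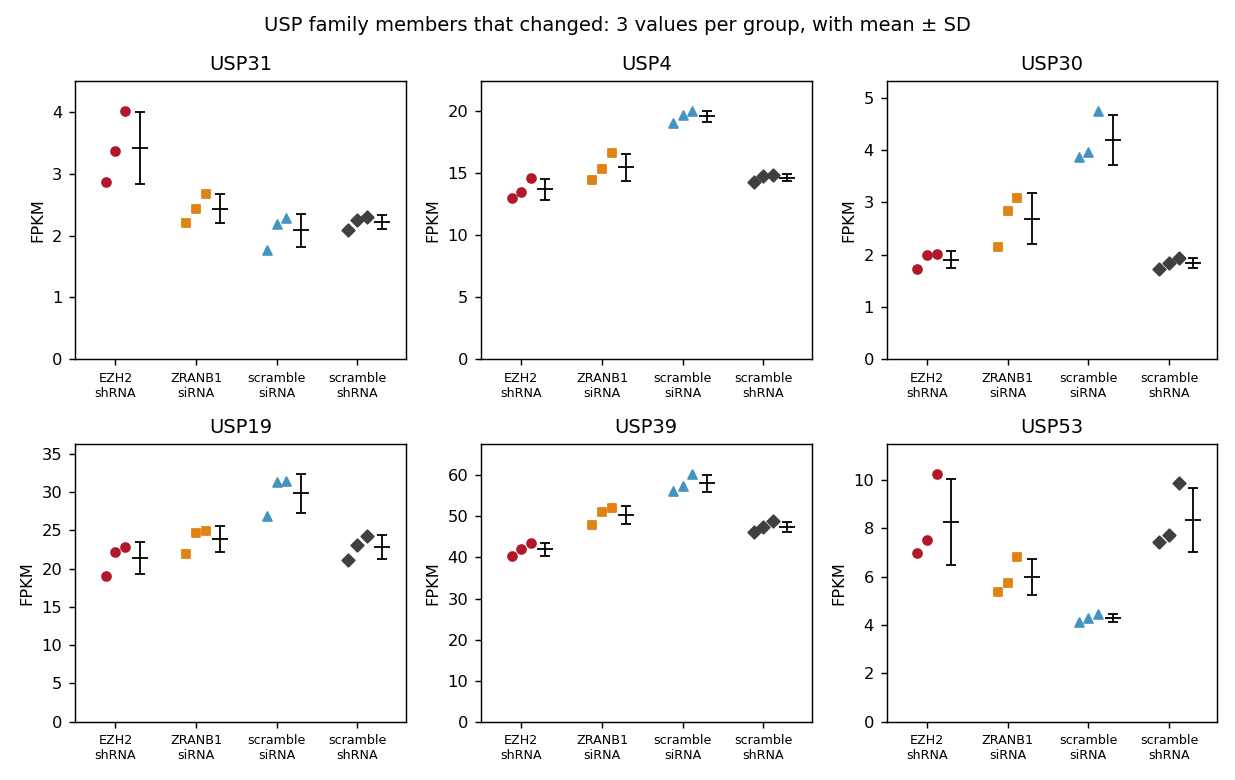
FPKM of the 5 members called with EZH2 shRNA or ZRANB1 siRNA (USP31, USP4, USP30, USP19 and USP39) and of USP53, the member with the largest fall between the scramble controls on the log2(FPKM + 1) scale; points are the 3 values of a group drawn from low to high, and bars are the mean ± SD. USP4, USP30, USP19 and USP39 are highest with scramble siRNA, and USP31 is highest with EZH2 shRNA.

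Most changes in the family lay between the controls. With scramble siRNA, 10 members were higher and 13 were lower than with scramble shRNA, so 53.5% of the tested members were called. Over all tested genes 50.6% were called, 25.5% higher and 25.1% lower, so the family's share was near that of the table as a whole. The member counts include USP44 and USP27X, which passed the filter only through the groups where they are high. With no filter on low values, 11 of 48 members were higher and 12 lower. The median log2 difference was -0.065 over the members and 0.011 over all tested genes, and the median size was 0.32 over the members and 0.31 over all tested genes. The scramble siRNA libraries serve here and in the ZRANB1 siRNA comparison, and the scramble shRNA libraries here and in the EZH2 shRNA comparison. The sources used here give no batch or date, so delivery by siRNA or by transduced shRNA and any batch cannot be told apart.

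Members that rose with scramble siRNA were led by USP44, at 2.45 ± 0.17 FPKM with scramble siRNA and 0.283 ± 0.16 FPKM with scramble shRNA (SD, n = 3 each), a ratio of 8.66 (log2 1.43, SE 0.13). USP44 passed the filter only through the groups where it is high, so its test is given with no filter on low values, where it was called too (limma, adjusted p = 5.36e-06). USP30 averaged 4.20 ± 0.48 FPKM with scramble siRNA and 1.83 ± 0.10 FPKM with scramble shRNA, a ratio of 2.29 (log2 0.87, adjusted p = 5.39e-05). The other 8 rose by smaller ratios. USP4, USP19 and USP39 were higher by 0.40, 0.37 and 0.28 on the log2 scale (adjusted p = 5.86e-04, 0.00635 and 0.0025). USP21 averaged 17.2 FPKM with scramble siRNA and 12.3 FPKM with scramble shRNA (log2 0.45), and USP22 averaged 99.1 FPKM with scramble siRNA and 76.7 FPKM with scramble shRNA (log2 0.37). USP10 averaged 52.9 FPKM with scramble siRNA and 40.9 FPKM with scramble shRNA. USP13, a relative of USP5, averaged 11.9 FPKM with scramble siRNA and 8.93 FPKM with scramble shRNA, and USP34 averaged 17.2 FPKM with scramble siRNA and 13.3 FPKM with scramble shRNA (adjusted p = 0.0201, held in 12 of 14 other settings).

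On the log2(FPKM + 1) scale, the falls with scramble siRNA were led by USP53, USP35, USP28 and USP27X. By ratio of means USP27X fell furthest, to 40.3% of its level with scramble shRNA, against 51.5% for USP53. USP53 fell by 0.81 on the log2 scale, to 4.29 ± 0.17 FPKM with scramble siRNA, against 8.34 ± 1.3 FPKM with scramble shRNA (SD, n = 3 each; adjusted p = 4.92e-04). USP35 averaged 2.998 FPKM with scramble siRNA and 5.33 FPKM with scramble shRNA (-0.66, adjusted p = 5.49e-04). USP28, which stabilises MYC and takes part in p53 signalling, averaged 8.10 ± 1.0 FPKM with scramble siRNA and 13.2 ± 0.52 FPKM with scramble shRNA (-0.65, adjusted p = 2.73e-04). All 3 fell without overlap between the groups, and so did USP27X, at 0.543 ± 0.15 FPKM with scramble siRNA and 1.35 ± 0.12 FPKM with scramble shRNA (-0.61; limma with no filter on low values, adjusted p = 9.23e-04, since USP27X passed the filter only through the groups where it is high). USP48 (-0.57), USP43 (-0.55), USP20 (-0.51), USP11 (-0.50), USP38 (-0.43), USP1 (-0.42), USP40 (-0.38), USP3 (-0.37) and USP16 (-0.32) were the other members that fell. USP48 averaged 17.0 FPKM with scramble siRNA and 25.8 FPKM with scramble shRNA, and USP38 averaged 6.20 FPKM with scramble siRNA and 8.72 FPKM with scramble shRNA. USP40 averaged 8.97 FPKM with scramble siRNA and 11.9 FPKM with scramble shRNA, and USP43 averaged 2.69 FPKM with scramble siRNA and 4.41 FPKM with scramble shRNA. USP3 and USP16, both histone H2A deubiquitinases, were less abundant in the siRNA control as well. USP3 averaged 5.24 FPKM with scramble siRNA and 7.05 FPKM with scramble shRNA, and USP16 averaged 13.9 FPKM with scramble siRNA and 17.6 FPKM with scramble shRNA. None of the 4 leading members was outside the range of its control with EZH2 shRNA. USP53 read 6.97, 7.53 and 10.3 FPKM with EZH2 shRNA, against 7.42, 7.73 and 9.87 FPKM with scramble shRNA. USP35 read 4.13, 4.95 and 5.07 FPKM with EZH2 shRNA, against 4.73, 5.43 and 5.82 FPKM with scramble shRNA. Both ranges overlapped between these groups. USP28 read 11.3, 12.6 and 14.3 FPKM with EZH2 shRNA, against 12.6, 13.3 and 13.6 FPKM with scramble shRNA. USP27X read 1.33, 1.44 and 1.99 FPKM with EZH2 shRNA, against 1.26, 1.30 and 1.48 FPKM with scramble shRNA. These overlapped as well. In the siRNA groups, USP35 read 2.90, 3.31 and 4.07 FPKM in libraries labelled ZRANB1 siRNA, against 2.72, 3.08 and 3.19 FPKM with scramble siRNA, and USP28 read 9.09, 9.75 and 10.6 FPKM in libraries labelled ZRANB1 siRNA, against 7.15, 7.98 and 9.16 FPKM with scramble siRNA. Both overlapped there. The USP16 call (adjusted p = 0.0423) held in 9 of the 14 other settings, and the reads of USP3 cannot be told apart from those of USP3-AS1, listed at 0.50 FPKM with scramble siRNA and 0.94 FPKM with scramble shRNA.

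The calls between the controls are given by role, and are to be read against the 50.6% of all tested genes called. Among 6 tested histone H2A and H2B enzymes, 2 were higher (USP22 and USP44) and 3 lower (USP3, USP16 and USP27X). Of these, USP44 and USP27X passed the filter only through the groups where they are high. USP21, also an enzyme of histone H2A, was counted under genome stability and the cell cycle instead, so these counts depend on the assignment. Among 10 members linked to genome stability and the cell cycle, 2 were higher (USP10 and USP21) and 4 lower (USP1, USP11, USP28 and USP48). Among 8 signalling members, 2 were higher (USP4 and USP34) and 1 lower (USP38). Proteasome and quality-control members gave 2 higher (USP13 and USP19) and 1 lower (USP20) of 6, and membrane and organelle members 1 higher (USP30) and 1 lower (USP35) of 6. Of 3 nucleolar and RNA-linked members 1 was higher (USP39), and of 4 little-described members 3 were lower (USP40, USP43 and USP53). Of the 5 calls with EZH2 shRNA or in libraries labelled ZRANB1 siRNA, USP31 and USP4 were signalling members, and USP19, USP30 and USP39 came from the quality-control, organelle and RNA groups.

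Marker genes of blood, endothelium and fibroblasts were low, and few could be tested. A blood list of 4 genes summed to 2.87 FPKM with EZH2 shRNA, 0.888 FPKM in libraries labelled ZRANB1 siRNA, 0.256 FPKM with scramble siRNA and 3.93 FPKM with scramble shRNA. CD14, its sole tested gene, was below 1 FPKM in both siRNA groups and passed the filter only through the shRNA groups. Its test is therefore left out. The log2 difference of CD14 was -1.98 with scramble siRNA against scramble shRNA. It was 0.59 in libraries labelled ZRANB1 siRNA against scramble siRNA. CD3E was listed at 0 in all groups but scramble shRNA. An endothelial list of 3 genes, none tested, summed to 1.73 FPKM with EZH2 shRNA, 1.55 FPKM in libraries labelled ZRANB1 siRNA, 0.794 FPKM with scramble siRNA and 2.02 FPKM with scramble shRNA. A fibroblast list of 3 genes, none tested, summed to 0.523 FPKM with EZH2 shRNA, 0.232 FPKM in libraries labelled ZRANB1 siRNA, 0 FPKM with scramble siRNA and 0.268 FPKM with scramble shRNA. The luminal list of 6 genes summed to 9.36 FPKM with EZH2 shRNA and 10.8 FPKM with scramble shRNA. Its sum was 12.4 FPKM in libraries labelled ZRANB1 siRNA and 12.5 FPKM with scramble siRNA. Of this list, EPCAM and GATA3 were tested. GATA3 was lower with EZH2 shRNA than with scramble shRNA (-0.40, adjusted p = 0.0393), and with scramble siRNA than with scramble shRNA EPCAM was higher (1.03) and GATA3 lower (-0.72). The part of these in the USP differences was not tested.

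Close relatives within the family are set side by side for the controls, where 25.5% of all tested genes were called higher and 25.1% lower, so unlike calls within a set are no mark of relatives. USP4, USP11 and USP15 share a domain layout of a DUSP and a ubiquitin-like domain before the catalytic core. With scramble siRNA USP4 was higher (19.5 ± 0.45 FPKM, against 14.6 ± 0.29 FPKM with scramble shRNA) and USP11 was lower (23.5 ± 2.1 FPKM, against 33.6 ± 2.1 FPKM with scramble shRNA; SD, n = 3 each). USP15 was called in neither direction, at 13.4 ± 2.4 FPKM with scramble siRNA and 11.6 ± 1.3 FPKM with scramble shRNA, with a 95% interval of the log2 difference from -0.17 to 0.54. USP22 and USP27X both use the SAGA subunits ATXN7L3 and ENY2. USP22 was higher and USP27X lower with scramble siRNA, and neither subunit was called. ATXN7L3 averaged 23.3 FPKM with scramble siRNA and 25.3 FPKM with scramble shRNA, and ENY2 averaged 31.6 FPKM with scramble siRNA and 27.3 FPKM with scramble shRNA. USP51, the other relative, averaged 0.113 FPKM over the 12 values.

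USP44 was higher with scramble siRNA while USP49, its nearest relative, averaged 4.22 FPKM with scramble siRNA and 4.84 FPKM with scramble shRNA and was not called (95% interval -0.37 to 0.049). USP28 fell while USP25 averaged 8.74 FPKM with scramble siRNA and 6.91 FPKM with scramble shRNA (95% interval -0.0035 to 0.62, adjusted p = 0.0917). USP20 fell to 5.72 ± 0.80 FPKM with scramble siRNA, against 8.58 ± 1.0 FPKM with scramble shRNA, while USP33 was not called at 20.2 ± 1.6 FPKM with scramble siRNA and 21.97 ± 1.8 FPKM with scramble shRNA (SD, n = 3 each). USP13 rose while USP5 was not called (adjusted p = 0.0934). USP43 fell while USP31 was not called between the controls (adjusted p = 0.649). Differences of change between relatives were not tested themselves.

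**Figure D5:**
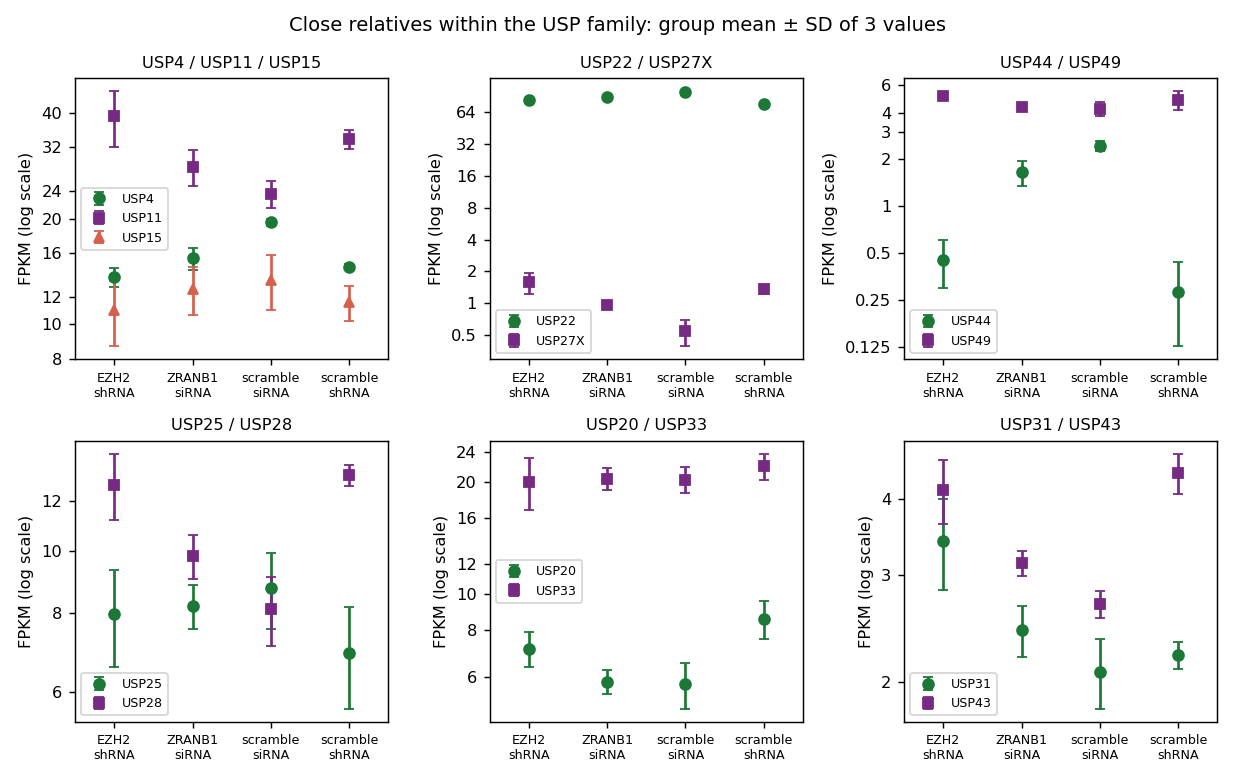
Group mean ± SD in FPKM on a log axis for 6 sets of close relatives in the 4 groups, with 3 values per group. With scramble siRNA, against scramble shRNA, the mean of USP4 is higher and that of USP11 lower, and USP27X, USP44, USP28, USP20 and USP43 differ by larger ratios than the relatives drawn with them.

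USP32 and USP6 share near-identical sequence with each other and with the pseudogenes USP32P1 and USP32P2, so their values are uncertain. USP32 averaged 13.8 FPKM with EZH2 shRNA and 12.6 FPKM with scramble shRNA, and 14.2 FPKM in libraries labelled ZRANB1 siRNA and 14.0 FPKM with scramble siRNA, and was not called. USP32P2 averaged 2.86 FPKM with EZH2 shRNA and 3.70 FPKM with scramble shRNA, and 1.35 FPKM in libraries labelled ZRANB1 siRNA and 0.168 FPKM with scramble siRNA. The pseudogene thus had its lowest level with scramble siRNA, while USP32 was lowest with scramble shRNA. USP8 and USP50 are neighbours on chromosome 15 with 0 protein-coding genes between them. USP8, an endosomal enzyme, averaged 7.40 FPKM in libraries labelled ZRANB1 siRNA and 6.63 FPKM with scramble siRNA, far above USP50.

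In all, 19 of the tested members were called in none of the 3 comparisons, and those not yet described are given by their group means. USP14, a proteasome-bound enzyme, averaged 33.4 FPKM with EZH2 shRNA and 29.2 FPKM with scramble shRNA, and 29.4 FPKM in libraries labelled ZRANB1 siRNA and 30.3 FPKM with scramble siRNA. USP9X, a large enzyme that stabilises MCL1, averaged 14.4 FPKM with EZH2 shRNA and 13.9 FPKM with scramble shRNA, and 12.1 FPKM in libraries labelled ZRANB1 siRNA and 11.4 FPKM with scramble siRNA. USP47, which acts on DNA polymerase beta, averaged 12.5 FPKM with EZH2 shRNA and 12.1 FPKM with scramble shRNA, and 12.9 FPKM in libraries labelled ZRANB1 siRNA and 12.2 FPKM with scramble siRNA. Each of these had largest and smallest group means within 1.5 times of each other. USP24 averaged 12.1 FPKM with EZH2 shRNA and 11.3 FPKM with scramble shRNA, and 10.5 FPKM in libraries labelled ZRANB1 siRNA and 10.7 FPKM with scramble siRNA. USP46 averaged 3.23 FPKM with EZH2 shRNA and 3.15 FPKM with scramble shRNA, and 3.56 FPKM in libraries labelled ZRANB1 siRNA and 3.68 FPKM with scramble siRNA. USP45, which acts on the repair nuclease ERCC1, averaged 2.1 FPKM with EZH2 shRNA and 2.17 FPKM with scramble shRNA, and 2.46 FPKM in libraries labelled ZRANB1 siRNA and 2.64 FPKM with scramble siRNA. USP46 and USP45 were among the less abundant tested members. USP42 averaged 4.69 FPKM with EZH2 shRNA and 4.74 FPKM with scramble shRNA, and 3.92 FPKM in libraries labelled ZRANB1 siRNA and 3.997 FPKM with scramble siRNA. USP54, a relative of USP53, averaged 4.56 FPKM with EZH2 shRNA and 4.74 FPKM with scramble shRNA, and 4.66 FPKM in libraries labelled ZRANB1 siRNA and 5.31 FPKM with scramble siRNA. USP37 averaged 5.12 FPKM with EZH2 shRNA and 4.18 FPKM with scramble shRNA, and 3.79 FPKM in libraries labelled ZRANB1 siRNA and 3.27 FPKM with scramble siRNA. USP37 was the closest of these to a call between the controls (log2 -0.27, adjusted p = 0.0518).

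The share of USP partner proteins called between the controls was near that of all tested genes (50.6%). Of 14 tested partners, 3 were higher and 4 lower with scramble siRNA than with scramble shRNA, and 0 were called with EZH2 shRNA or in libraries labelled ZRANB1 siRNA (limma, unadjusted p under 0.05 in 0 with EZH2 shRNA, and in 3 higher and 2 lower in libraries labelled ZRANB1 siRNA). At that unadjusted threshold, 1207 of all 11929 tested genes were higher and 1351 lower with EZH2 shRNA. In libraries labelled ZRANB1 siRNA, 1867 were higher and 1649 lower. After adjustment, 6.41% of all tested genes were called with EZH2 shRNA and 16.6% in libraries labelled ZRANB1 siRNA, so 0 of 14 says little about the partners. WDR48, the activator of USP1, USP12 and USP46, averaged 16.6 ± 1.6 FPKM with scramble siRNA and 12.7 ± 1.4 FPKM with scramble shRNA (log2 0.36, adjusted p = 0.0226), while USP1 itself was lower. WDR20, which acts with WDR48 on USP12 and USP46, averaged 10.5 ± 1.1 FPKM with scramble siRNA and 14.4 ± 0.34 FPKM with scramble shRNA (-0.43, adjusted p = 0.00125). USP12 and USP46 were not called. ATXN7, a SAGA subunit, was lower (-0.35, adjusted p = 0.00515).

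Other deubiquitinase families gave calls in the same comparisons, where 6.41% of all tested genes were called with EZH2 shRNA, 16.6% in libraries labelled ZRANB1 siRNA and 50.6% between the controls. Of 14 tested OTU members, 2 were higher and 0 lower with EZH2 shRNA, 5 were higher and 0 lower in libraries labelled ZRANB1 siRNA, and 0 were higher and 6 lower with scramble siRNA than with scramble shRNA (limma). At an unadjusted p under 0.05, OTU members counted 3 higher and 0 lower with EZH2 shRNA, 6 higher and 0 lower in libraries labelled ZRANB1 siRNA, and 1 higher and 7 lower between the controls. In the same order, all 11929 tested genes counted 1207 higher and 1351 lower, 1867 higher and 1649 lower, and 3421 higher and 3315 lower. Of 11 JAMM members, the zinc-dependent deubiquitinases, 0 were higher and 2 lower with EZH2 shRNA (unadjusted p under 0.05 in 0 higher and 6 lower), 1 was higher and 2 lower in libraries labelled ZRANB1 siRNA, and 3 were higher and 4 lower between the controls. Calls in libraries labelled ZRANB1 siRNA were upward in the OTU list (5 of 14) and downward in the USP family (4 of 43), a contrast that was not tested. The scramble siRNA libraries serve both in that comparison and between the controls. Among all 11929 tested genes, 1210 were called higher and 775 (6.5%) lower in libraries labelled ZRANB1 siRNA, beside 9.3% lower in the USP family. Called or not, 22 USP members had a positive log2 fold change there and 21 a negative one. In the OTU list these counts were 9 and 5. The UCH (3 tested), Josephin (3 tested) and MINDY and ZUFSP (4 tested) lists had 0 calls with EZH2 shRNA or in libraries labelled ZRANB1 siRNA (limma, unadjusted p under 0.05 in 0 with EZH2 shRNA and in 0, 2 and 1 higher in libraries labelled ZRANB1 siRNA). Between the controls, 1 UCH member was higher, 2 Josephin members were lower and 1 of the MINDY and ZUFSP list was lower.

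Genes with a USP fold whose symbols lie outside the rule included CYLD, which cuts linear and lysine-linked ubiquitin chains, and USPL1, a SUMO protease. CYLD averaged 5.93 ± 0.41 FPKM with scramble siRNA and 8.40 ± 1.3 FPKM with scramble shRNA (-0.43, adjusted p = 0.0102), and USPL1 averaged 5.50 ± 0.69 FPKM with scramble siRNA and 8.88 ± 0.45 FPKM with scramble shRNA (-0.61, adjusted p = 7.97e-04). Neither was called with EZH2 shRNA or in libraries labelled ZRANB1 siRNA (adjusted p between 0.127 and 0.832). USP18, which removes the ubiquitin-like protein ISG15 and was left out by the rule, averaged 0.912 FPKM with EZH2 shRNA and 1.58 FPKM with scramble shRNA, and 1.83 FPKM in libraries labelled ZRANB1 siRNA and 2.21 FPKM with scramble siRNA, and was called in no comparison. Of 11 tested interferon-stimulated genes, 0 were higher and 6 lower with EZH2 shRNA (limma, unadjusted p under 0.05 in 0 higher and 9 lower). Over all tested genes 6.41% were called in that comparison. In the same list, 9 were higher and 1 lower in libraries labelled ZRANB1 siRNA (16.6% of all tested genes called), and 1 was higher and 9 lower with scramble siRNA than with scramble shRNA (50.6%).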

How the data were processed

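RNA-seq was made from LM2 cells in 4 groups of 3 libraries. The deposited table holds FPKM values in 12 columns and 26006 gene rows. Per the submitters' processing notes, the tools were Cuffdiff 2.2.1, Cufflinks 2.2.1, TopHat2 2.1.1 and SAMtools, with human build hg19. The sources used here give neither their options nor the annotation, strand setting or scaling of libraries. FPKM is a share of each library, so abundant genes lower the values of others.

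Of the 440 repeated symbols only the row of highest mean stayed, and 27 rows whose symbols had become dates stayed separate. Genes averaging 1 FPKM or more (11929) were tested on log2(FPKM + 1). A limma 3.58.1 model (R 4.3.3) held all 4 groups, left 8 residual degrees of freedom, and used a variance trend and Benjamini-Hochberg adjustment. The script was tested on simulated data. No counts were used, so no interval for counting error is given. Within groups, values stood in text order in 15751, 15850, 15454 and 15773 rows with 3 different values (EZH2 shRNA, ZRANB1 siRNA, scramble siRNA and scramble shRNA), and in numeric order in 93.6%, 95%, 95% and 94.9% of them. For fits without 1 replicate, each gene's values were first put in a seeded random order. Alternatives were another pseudocount, filter, variance model, scaling, row rule, gene set and sample set.

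The members and lists were chosen with earlier results of these data known. By rule, all 12 values are given for members called with EZH2 shRNA or ZRANB1 siRNA, the 4 largest called changes each way between the controls, the 5 most abundant members and the 6 linked to EZH2. Relatives stand side by side, other members by group mean, and other genes where called. Members close to a call, USP12, USP34 and USP37 among them, were picked after their values were seen. Python 3.11.15 with matplotlib 3.10.9 drew the figures.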

Additional observations from a re-analysis of the deposited data

Results flagged for a closer look

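EZH2 itself differed in its change between the comparisons of EZH2 shRNA and of ZRANB1 siRNA with their controls. Its log2 fold change was -1.06 with EZH2 shRNA and -0.66 in the libraries labelled ZRANB1 siRNA, each against its own scramble control, and the second minus the first was 0.39 (limma, adjusted p = 0.0241). All 3 values were lower than every control value in both comparisons. No USP family member met a rule for a closer look.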

How the results depend on the processing

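The count of members called with EZH2 shRNA was 1, and it was 0 with no filter on low values, 0 with a mean of at least 5 FPKM, which removes USP31, 0 with only the groups compared, and 0 to 1 without 1 replicate. The count in libraries labelled ZRANB1 siRNA was 4, and it was 2 with a mean of at least 5 FPKM, 2 with 1 scaling factor per group and 2 to 3 without 1 replicate. It was 5, with 1 of them higher (USP27X), with no variance trend, and 4, with 1 of them higher (USP53), with only the groups compared. The difference of effects called 0 members, and it called 1 with no filter, 2 with no variance trend, 1 with small RNA symbols left out and 0 to 1 without 1 replicate. Between the controls the count of 23 stayed between 18 and 24, and 22 to 24 without 1 replicate. There, 21 of the 23 calls held in every setting run that tested them, and USP34 and USP16 did not. No direction of a called member reversed among the settings run. Small changes that were not called could change sign, such as those of USP1 and USP7 with EZH2 shRNA. The cause of these changes was not tested, apart from genes removed by a filter. No paired analysis was possible because the columns of a group do not follow single libraries, so a replicate number names no library. Depth is unknown, and 3 values per group limit the precision.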
